A study of Mus musculus with 18 samples.

Results

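The stroke lesion at 1 day was compared with the matching right-side tissue of sham mice by total RNA sequencing of punched mouse brain. The libraries were chosen by their labels, as the 3 right-side lesions taken 1 day after the stroke (numbers 1, 3 and 4) and the 3 right-side punches of sham mice (numbers 1, 2 and 3), which are 6 of the 18 libraries of the study. Of 34921 gene entries, 14016 reached 1 FPKM in at least 3 of the 18 libraries and were tested. FPKM counts fragments per length of transcript, scaled to the mapped fragments of the library, so it is a level per length. All mice were male C57BL/6, an inbred laboratory strain, and 9 weeks old. The 1-day mice received rose bengal, a light-sensitive dye, by intraperitoneal injection at 100 mg/kg. After 5 min the skull was lit for 15 min with 532 nm light of 40 mW from a fiber 2 mm wide, centred 2 mm right of bregma, where skull sutures meet. The labels carry the same treatment text for every sample and do not say separately whether the sham mice received dye, light or neither. Lesions were located on T2-weighted magnetic resonance images and punched from frozen brain, and a piece of similar size was taken at the same place in sham mice. Each group holds 3 animals. Other groups enter beside this comparison, namely the lesion at 4 h (numbers 2, 3 and 6), at 3 days (1, 2 and 8) and at 10 days (1, 2 and 5), and left-side punches (1, 3 and 5). The left-side punches are stroke mice's contralateral tissue in the protocol but sham in the titles and disease state. The groups limit the model in that a punch is a mixture of all the cells in it, and each group holds male mice of 1 strain and age.

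Photothrombosis closes small vessels where light meets the dye, and the tissue under the spot loses its blood supply. In such tissue, dying cells release molecules that Toll-like receptors and their co-receptor Cd14 recognise, and the transcription factor NF-kappaB then drives chemokines, the small proteins that call monocytes and neutrophils out of the blood. Cytokines of the interleukin 6 family act through the transcription factor STAT3, which in astrocytes drives the reactive state with its intermediate filaments and secreted proteins. Heat shock factor, Nrf2 and the zinc-sensing factor of the metallothionein genes drive further sets of stress genes.

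Nominal depth, estimated from the FPKM steps of single-exon genes, was 17380000 to 24350000 fragments in the 1-day lesions and 18230000 to 22780000 fragments in sham right, and is rough. Genes of the mitochondrial genome held 24.4% to 33.0% of all FPKM in the 1-day lesions and 29.2% to 33.1% in sham right (exact two-sided permutation test, p = 0.4, where 0.1 is the smallest p that 3 against 3 allows). By mean correlation with the others of its group, no library of the 6 stood apart, at 0.977 to 0.984 at 1 day and 0.987 to 0.988 in sham right. Of the other groups, 10-day library 5 (0.933) and left-side library 5 (0.941) did. Such a correlation covers the whole profile, and differences among the lesions in called genes and in markers of neighbouring structures are given below. The punches carried brain markers in every library, with the synaptic gene Snap25 at 500.0, 501 and 413 FPKM in 1-day lesions 1, 3 and 4, against 436, 441 and 390.0 FPKM in sham libraries 1, 2 and 3. Values per library are given in this order throughout.

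At 1 day, 165 genes were called at an adjusted p under 0.05 by limma, a linear model with shared spread, on log2(FPKM + 1). They are 1.18% of the genes tested. Of them, 126 were higher in the lesion (0.899%) and 39 lower (0.278%), while 1203 genes had an unadjusted p under 0.05. The rises were larger than the falls, with a median log2 fold change of 1.17 among the called rises and -0.80 among the called falls, and 99 called genes differed by at least 1 on the log2 scale. Many rising genes were low in sham tissue, with a mean under 1 FPKM in 54 and under 3 FPKM in 91 of the 126, so that the pseudocount of 1 makes their log2 fold changes too small. The median log2 fold change of all genes was 0.034. In all 165 the 3 lesion values lay beyond the 3 sham values, which was so for 22.8% of all genes tested. The number of calls was 156 without lesion 1, but 90 without lesion 3, 89 without lesion 4, and 103, 89 and 85 without sham library 1, 2 or 3. Of the 165, 70 were called in all 6 of these fits, among them every one of the 25 largest rises other than Ccl3, Lgals3 and Cxcl10. In bulk tissue, fewer cells of a type and less RNA per cell cannot be told apart. The 165 comprise 155 protein-coding genes, 3 antisense RNAs, 2 processed transcripts, 2 processed pseudogenes, and a lincRNA, a miRNA and a snoRNA. The plot of fold change against adjusted p shows the asymmetry.

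**Figure D1:**
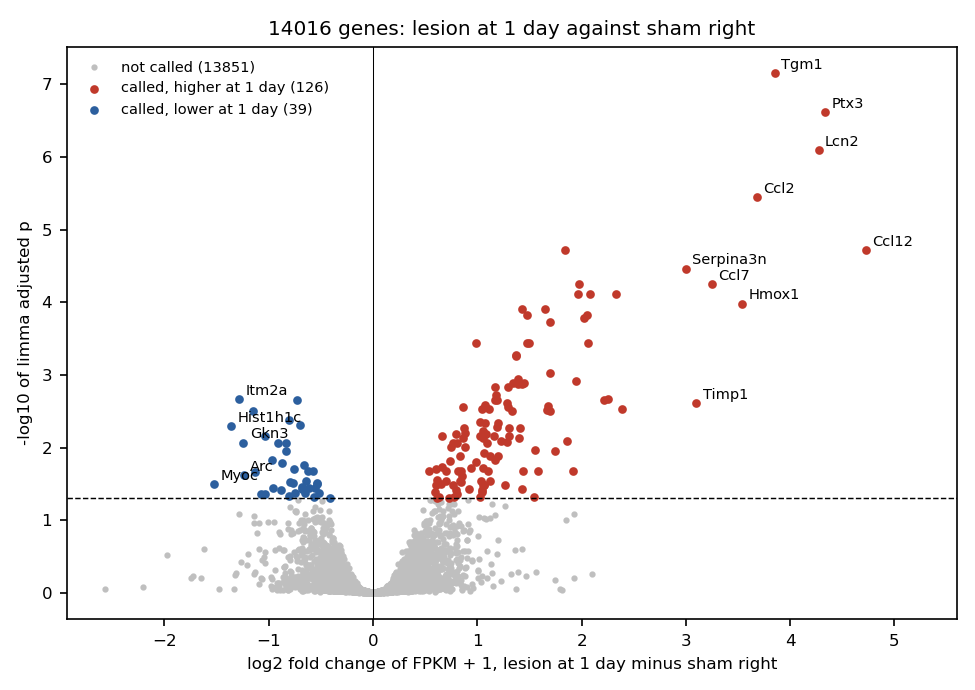
Log2 fold change of FPKM + 1 (lesion at 1 day minus sham right, x axis) against -log10 of the limma adjusted p (y axis) for 14016 genes, with the dashed line at an adjusted p of 0.05. The 126 called rises (red) reach 4.73 and the 39 called falls (blue) reach -1.52, and Tgm1, Ptx3, Lcn2 and Ccl2 lie highest.

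The promoters of 5 of the 8 genes with the largest rises were in the RefSeq promoter table (build GRCm38.p6, from 250 bases before to 50 after the start of the gene), and they are shown because the genes with the largest changes rose together from low sham levels. Capitals mark matches to 7 short motifs searched on both strands. These are the AP-1 element TGANTCA, found in 7.81% of the 32851 promoters of the table, the NF-kappaB element (GGG, any 2 bases and TTTCC, 1.63%), the STAT element (TTCNNNGAA, 8.3%), the heat shock element (GAANNTTC, 7.86%), the antioxidant element (TGACNNNGC, 12.4%), the C/EBP element (TTGCNNAA, 10.8%) and the TATA box (TATAAA, 13.6%). The Ccl12 promoter (chr11:82101595-82101894, plus strand) held a TATA box at -31 from the start. Ptx3 (chr3:66219637-66219936, plus strand) held a C/EBP element on the reverse strand at -57, and Lcn2 (chr2:32387690-32387989, minus strand) a C/EBP element at -216. Tgm1 (chr14:55713443-55713742, minus strand), of which 1 of 2 entries is shown, held STAT elements at -173 and -64. Timp1 (chrX:20869916-20870215, plus strand) held none of the 7. The Lcn2 and Tgm1 entries start 513 and 434 bases from the GENCODE start, and no 2 matches overlapped. No printed promoter held the AP-1, NF-kappaB, heat shock or antioxidant letters, which says only that these letters are not in these windows.
Ccl12: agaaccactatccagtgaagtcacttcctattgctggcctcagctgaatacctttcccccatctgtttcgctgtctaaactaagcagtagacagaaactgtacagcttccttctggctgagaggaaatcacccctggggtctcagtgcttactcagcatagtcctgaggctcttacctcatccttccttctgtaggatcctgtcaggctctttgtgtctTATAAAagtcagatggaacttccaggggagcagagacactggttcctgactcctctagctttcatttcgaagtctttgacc
Ptx3: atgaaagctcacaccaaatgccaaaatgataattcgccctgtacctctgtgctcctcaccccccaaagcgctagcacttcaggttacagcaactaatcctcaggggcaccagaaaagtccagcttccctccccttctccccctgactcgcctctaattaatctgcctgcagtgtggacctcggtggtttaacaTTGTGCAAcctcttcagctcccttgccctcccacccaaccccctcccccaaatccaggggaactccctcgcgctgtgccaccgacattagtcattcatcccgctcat
Lcn2: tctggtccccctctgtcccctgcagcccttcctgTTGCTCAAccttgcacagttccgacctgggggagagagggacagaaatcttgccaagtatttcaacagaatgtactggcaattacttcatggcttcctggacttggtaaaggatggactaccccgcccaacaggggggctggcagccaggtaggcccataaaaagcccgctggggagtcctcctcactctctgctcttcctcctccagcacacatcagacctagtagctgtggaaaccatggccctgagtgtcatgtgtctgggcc
Tgm1: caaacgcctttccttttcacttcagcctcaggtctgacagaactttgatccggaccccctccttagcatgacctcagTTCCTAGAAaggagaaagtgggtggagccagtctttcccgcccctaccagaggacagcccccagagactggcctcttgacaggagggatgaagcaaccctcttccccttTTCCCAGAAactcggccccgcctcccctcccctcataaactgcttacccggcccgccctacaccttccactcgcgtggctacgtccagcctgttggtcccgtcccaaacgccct
Timp1: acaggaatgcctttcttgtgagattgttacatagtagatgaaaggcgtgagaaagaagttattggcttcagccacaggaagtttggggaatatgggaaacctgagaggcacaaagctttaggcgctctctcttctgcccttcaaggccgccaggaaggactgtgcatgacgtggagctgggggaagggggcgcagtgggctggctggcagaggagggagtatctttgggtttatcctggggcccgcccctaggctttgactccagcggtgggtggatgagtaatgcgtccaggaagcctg

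CC chemokines held the largest rise. Ccl12, a ligand that draws monocytes in mice, had 39.7, 69 and 59.3 FPKM in the 1-day lesions, against 1.97, 0.73 and 0.791 FPKM in sham right. Every lesion was far above every sham value, with library 3 highest and library 1 lowest (log2 fold change 4.73, SE 0.43, adjusted p = 1.93e-05). The other ligands of monocytes, Ccl2 and Ccl7, lie beside it on chromosome 11 of GRCm38 (Ccl2 chr11:82035571-82037453, Ccl7 chr11:82045712-82047525, Ccl12 chr11:82101845-82103400). Ccl2 had 11.5, 19.2 and 15.1 FPKM in the 1-day lesions, against 0.476, 0.116 and 0.171 FPKM in sham right (log2 fold change 3.68, SE 0.29, adjusted p = 3.58e-06). Ccl7 had 7.12, 11.9 and 11.7 FPKM in the 1-day lesions, against 0.138, 0.202 and 0.123 FPKM in sham right (log2 fold change 3.25, SE 0.33, adjusted p = 5.65e-05). In both, the groups were far apart and lesion 1 was again the lowest lesion. Neighbouring Ccl genes resemble each other and can share reads, so the split between them is uncertain.

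Ccl3 and Ccl4, inflammatory ligands made by microglia and macrophages, rose less and more unevenly. Ccl4 had 4.26, 7.08 and 3.24 FPKM in the 1-day lesions, against 0.228, 0.0493 and 0.293 FPKM in sham right, so that lesion 3 held about as much as both other lesions together (log2 fold change 2.25, SE 0.34, adjusted p = 0.00211). Ccl3 had 2.92, 6.37 and 3.07 FPKM in the 1-day lesions, against 0.144, 0.404 and 0.37 FPKM in sham right, with the same high library (log2 fold change 1.91, SE 0.39, adjusted p = 0.0209). Ccl3 lost its call when any 1 library except lesion 1 was left out (adjusted p up to 0.147). In all, 5 of 12 tested CC chemokines were called, all upward, with a median log2 fold change over the 12 of 0.65. Ccl5, a ligand of T cells, had 0.0453, 0.205 and 0.293 FPKM in the 1-day lesions, against 0.296, 0 and 0.381 FPKM in sham right, and Ccl6 1.94, 4.1 and 3.68 FPKM in the 1-day lesions, against 1.76, 0.998 and 1.79 FPKM in sham right. Neither passed the test (adjusted p = 0.98 and 0.481).

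Of 7 tested CXC and CX3C chemokines, 3 were called, all upward. Cxcl1, which draws neutrophils, had 2.83, 6.28 and 5.07 FPKM in the 1-day lesions, against 0.17, 0.0385 and 0.103 FPKM in sham right, with lesions 3 and 4 near each other and lesion 1 lower (log2 fold change 2.33, SE 0.25, adjusted p = 7.73e-05). Cxcl10, an interferon-induced ligand of activated T cells, had 1.44, 4.77 and 4.44 FPKM in the 1-day lesions, against 0.475, 0.0764 and 0.286 FPKM in sham right, so that lesion 1 stood well under the other two (log2 fold change 1.74, SE 0.33, adjusted p = 0.0112). Cxcl5, another neutrophil ligand, had 0.763, 1.6 and 2.1 FPKM in the 1-day lesions, against 0.146, 0.197 and 0.458 FPKM in sham right (log2 fold change 0.94, SE 0.19, adjusted p = 0.0192). Cxcl2 did not reach 1 FPKM in 3 libraries and was not tested. It had 0.489, 0.586 and 0.701 FPKM in the 1-day lesions and was listed at 0 in all 3 sham libraries. Cxcl10 lost its call without lesion 3, lesion 4, sham library 2 or sham library 3 (adjusted p up to 0.0881). Cxcl5 lost its call without lesion 3, lesion 4, sham library 1 or sham library 2 (adjusted p up to 0.121).

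Of the chemokine receptors, Ccr2, which binds Ccl2 and marks inflammatory monocytes, stayed under the filter at 0.194, 0.206 and 0.22 FPKM in the 1-day lesions, against 0.121, 0.0665 and 0.22 FPKM in sham right. Its ranges overlapped.

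The inflammatory cytokines themselves were low. Il1b, the classical inflammatory interleukin, had 0.79, 1.13 and 0.848 FPKM in the 1-day lesions, against 0.434, 0.463 and 0.553 FPKM in sham right (adjusted p = 0.794). Il6 had 0.277, 0.46 and 0.355 FPKM in the 1-day lesions, against 0.0454, 0 and 0.0203 FPKM in sham right, and Tnf 0.13, 0.345 and 0.56 FPKM in the 1-day lesions, against 0.155, 0 and 0 FPKM in sham right, and neither passed the filter. Of 11 tested interleukin 1 and TNF ligands and receptors, the TNF receptor Tnfrsf1a was the called one, at 6.53, 8.64 and 10.8 FPKM in the 1-day lesions, against 2.93, 2.64 and 2.64 FPKM in sham right (log2 fold change 1.35, SE 0.19, adjusted p = 0.00128). All 3 lesions lay above all sham values, lesion 4 highest. Over the 11 list members the median log2 fold change was 0.43, and 9 lay above 0. By limma 8 of them were higher at an unadjusted p under 0.05, and 1 was lower.

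Of 13 tested members of the interleukin 6 family, their receptors and the STAT3 feedback genes, 5 rose and none fell. Il11, a ligand of the family, had 1.24, 1.2 and 1.44 FPKM in the 1-day lesions, against 0.0815, 0.207 and 0.173 FPKM in sham right, with the 3 lesions close together (log2 fold change 0.99, SE 0.12, adjusted p = 3.63e-04). Lif, another ligand, was not tested, and had 0.88, 0.761 and 1.1 FPKM in the 1-day lesions, against 0.052, 0.116 and 0.136 FPKM in sham right. Osmr, the oncostatin M receptor, had 1.55, 2.17 and 2.81 FPKM in the 1-day lesions, against 0.331, 0.421 and 0.357 FPKM in sham right (log2 fold change 1.2, SE 0.20, adjusted p = 0.00462). Stat3 itself had 5.67, 7.43 and 10.16 FPKM in the 1-day lesions, against 3.0, 2.84 and 3.31 FPKM in sham right, and Socs3, the feedback inhibitor that STAT3 induces, 5.29, 7.34 and 9.71 FPKM in the 1-day lesions, against 1.61, 0.90 and 0.981 FPKM in sham right. In both, all lesions were above sham, lesion 4 highest and lesion 1 lowest (log2 fold change 1.08, adjusted p = 0.00651 for Stat3 and 1.95, adjusted p = 0.00120 for Socs3). Bcl3, which binds NF-kappaB subunits in the nucleus and is a STAT3 target as well, had 1.14, 1.65 and 2.09 FPKM in the 1-day lesions, against 0.213, 0.12 and 0.128 FPKM in sham right (log2 fold change 1.17, SE 0.17, adjusted p = 0.00146). All 5 called members were highest in lesion 4.

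NF-kappaB feedback was called in 3 of 12 members, Bcl3 and the inhibitors Nfkbiz and Nfkbia. Nfkbia, which holds NF-kappaB in the cytoplasm, had 20.03, 24 and 29.3 FPKM in the 1-day lesions, against 11.4, 10.7 and 11.2 FPKM in sham right (log2 fold change 1.06, SE 0.23, adjusted p = 0.0327), and Nfkbiz, a nuclear co-regulator, had 1.98, 2.66 and 3.77 FPKM in the 1-day lesions, against 0.749, 0.824 and 0.77 FPKM in sham right (log2 fold change 1.07, SE 0.20, adjusted p = 0.0117). All lesions lay above all sham values in both. Nfkbia and Nfkbiz lost their calls when any 1 library except lesion 1 was left out (adjusted p up to 0.18 and 0.0836). Nfkbia was not called with the left-side punches as control either. The subunit Nfkb2 had 1.02, 1.48 and 1.59 FPKM in the 1-day lesions, against 0.54, 0.625 and 0.665 FPKM in sham right and was not called (adjusted p = 0.277).

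Toll-like receptor signalling showed 3 called rises among 12 members. Cd14, the co-receptor that hands ligands to Toll-like receptors, had 7.86, 12.5 and 10.4 FPKM in the 1-day lesions, against 1.93, 1.35 and 1.79 FPKM in sham right, with every lesion above every sham value (log2 fold change 2.05, SE 0.23, adjusted p = 1.51e-04). Tlr2 had 1.37, 1.61 and 1.86 FPKM in the 1-day lesions, against 0.414, 0.395 and 0.50 FPKM in sham right (log2 fold change 0.86, SE 0.15, adjusted p = 0.00732). Myd88, the adaptor inside the cell, had 2.82, 3.55 and 3.87 FPKM in the 1-day lesions, against 1.75, 2.06 and 1.73 FPKM in sham right (log2 fold change 0.63, SE 0.15, adjusted p = 0.0481). Myd88 lost its call when any 1 library except lesion 1 was left out (adjusted p up to 0.243). Tlr2 lost its call without lesion 4 (adjusted p up to 0.0527). Tlr4 had 0.537, 0.703 and 0.0796 FPKM in the 1-day lesions, against 0.388, 0.399 and 0.456 FPKM in sham right, and its ranges overlapped. Among 14 enzymes of prostaglandin and leukotriene synthesis, Ptges, which makes prostaglandin E2, was called at 2.43, 3.69 and 3.8 FPKM in the 1-day lesions, against 0.905, 0.84 and 0.926 FPKM in sham right (log2 fold change 1.17, SE 0.18, adjusted p = 0.00218). The cyclooxygenase Ptgs2 upstream of it had 4.0, 4.51 and 5.43 FPKM in the 1-day lesions, against 3.42, 3.2 and 2.48 FPKM in sham right and was not called (adjusted p = 0.581).

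**Figure D2:**
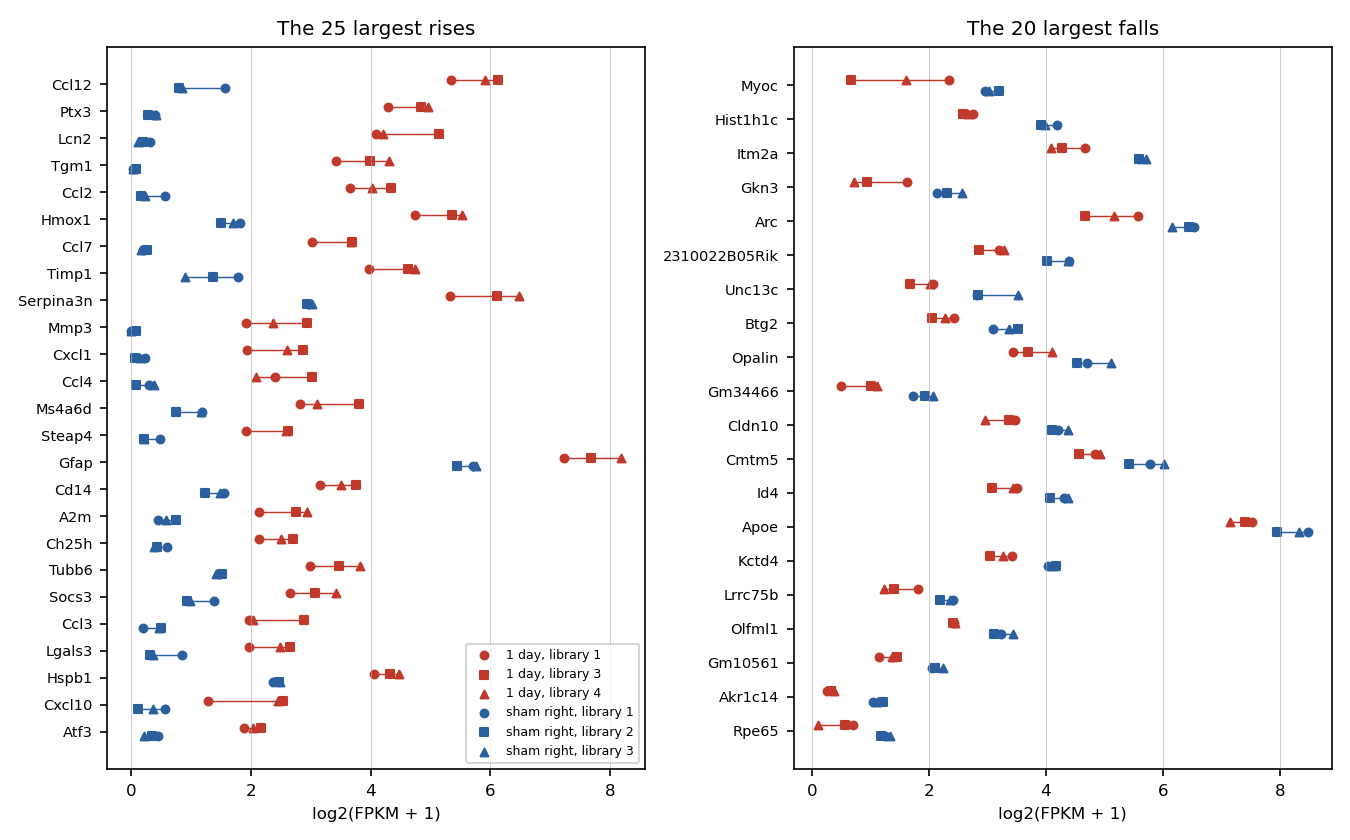
Log2(FPKM + 1) in each library for the 25 largest called rises (left) and the 20 largest called falls (right), with the 1-day lesions in red above sham right in blue, symbols for the library and lines from the lowest to the highest value. The genes were chosen so that no red range meets its blue range. Myoc (1.66) and Cxcl10 (1.24) have the widest ranges among the lesions.

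Reactive astrocyte genes formed the list with the highest median. All 20 tested members had a log2 fold change above 0, with a median of 1.36, and 14 were called. The list was written with earlier results of these libraries known. Gfap, the filament protein of astrocytes, had 149, 204 and 289.5 FPKM in the 1-day lesions, against 51.1, 42.7 and 53 FPKM in sham right. It was abundant in sham tissue already, and every lesion lay far above it, lesion 4 highest (log2 fold change 2.06, SE 0.26, adjusted p = 3.63e-04). Serpina3n, a secreted serine protease inhibitor, had 39.2, 67.8 and 87.8 FPKM in the 1-day lesions, against 6.74, 6.65 and 7.06 FPKM in sham right, and Steap4, a metal reductase, 2.78, 5.14 and 4.98 FPKM in the 1-day lesions, against 0.385, 0.149 and 0.16 FPKM in sham right. In both genes all lesions were far above sham and lesion 1 was the lowest (log2 fold change 3.00, adjusted p = 3.44e-05 for Serpina3n and 2.08, adjusted p = 7.73e-05 for Steap4).

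Ptx3, a secreted pattern-recognition pentraxin, had 18.5, 27.8 and 30.1 FPKM in the 1-day lesions, against 0.317, 0.211 and 0.333 FPKM in sham right (log2 fold change 4.33, SE 0.27, adjusted p = 2.41e-07). Tgm1, a transglutaminase known from the cross-linked envelope of skin cells, had 9.69, 14.8 and 18.7 FPKM in the 1-day lesions, against 0.0154, 0.0515 and 0.0228 FPKM in sham right, and gave the smallest adjusted p of all genes (log2 fold change 3.86, SE 0.21, adjusted p = 7.01e-08). Lcn2, a secreted protein that binds bacterial iron carriers and is made by reactive astrocytes and by neutrophils, had 15.9, 34.2 and 17.4 FPKM in the 1-day lesions, against 0.233, 0.142 and 0.075 FPKM in sham right (log2 fold change 4.27, SE 0.30, adjusted p = 8.00e-07). In sham tissue these 3 genes stayed at or under 0.333 FPKM, and in the lesions the lowest value was 9.69 FPKM. Timp1, the inhibitor of matrix metalloproteinases, had 14.7, 23.7 and 25.9 FPKM in the 1-day lesions, against 2.45, 1.58 and 0.858 FPKM in sham right (log2 fold change 3.1, SE 0.48, adjusted p = 0.00246). Slc10a6, a steroid sulfate transporter, was listed at 0 in all 3 sham libraries, had 0.201, 0.743 and 0.61 FPKM in the lesions, and was not tested.

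Of 15 filament and cytoskeletal genes of reactive cells, 6 rose and none fell, with a median of 0.75. Vim, an intermediate filament, had 9.12, 13.3 and 21.2 FPKM in the 1-day lesions, against 5.13, 4.62 and 3.97 FPKM in sham right (log2 fold change 1.41, SE 0.24, adjusted p = 0.00532). Nes, the filament of neural progenitors, had 3.2, 3.65 and 6.28 FPKM in the 1-day lesions, against 1.57, 1.46 and 1.51 FPKM in sham right (log2 fold change 1.05, SE 0.21, adjusted p = 0.0192). Tubb6, a beta tubulin, had 6.94, 10.13 and 13.1 FPKM in the 1-day lesions, against 1.78, 1.84 and 1.66 FPKM in sham right (log2 fold change 1.96, SE 0.21, adjusted p = 7.73e-05). In all 3 genes lesion 4 was the highest and lesion 1 the lowest. Tagln2 (log2 fold change 1.3, adjusted p = 0.00147) and Msn (log2 fold change 1.17, adjusted p = 0.0147), which bind actin, rose as well. Nes lost its call without lesion 4, sham library 1, sham library 2 or sham library 3 (adjusted p up to 0.106). Msn lost its call when any 1 library except lesion 1 was left out (adjusted p up to 0.0997). The sphingosine receptor S1pr3 was called in the reactive astrocyte list besides those named (log2 fold change 1.2, adjusted p = 0.0132).

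The list of resting astrocyte genes held no call. Of 19 members 2 had a log2 fold change above 0, the median was -0.34, and limma called none (unadjusted p under 0.05 in 7, all lower). Aqp4, the water channel of astrocyte endfeet, had 28.9, 30.6 and 39.4 FPKM in the 1-day lesions, against 33.1, 35.4 and 42.9 FPKM in sham right. Its values overlapped (adjusted p = 0.905). Fabp7, a fatty acid binding protein of astrocyte precursors, had 12.2, 17.1 and 15.3 FPKM in the 1-day lesions, against 30, 36.1 and 35.1 FPKM in sham right, with no overlap, and was not called (adjusted p = 0.109). Summed over the list, resting astrocyte genes had 1129, 1080 and 1068 FPKM in the 1-day lesions, against 1393, 1240 and 1378 FPKM in sham right (exact permutation p = 0.1, the smallest possible). Many other lists, among them circadian clock and lysosomal genes, reached this p in one direction or the other, so it does not set this list apart. Outside this list limma called Cldn10, a claudin of astrocytes, lower (log2 fold change -0.96, adjusted p = 0.0147).

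Chaperones of the heat shock response were called in 3 of 17. Hspb1, a small heat shock protein, had 15.6, 19.1 and 21.2 FPKM in the 1-day lesions, against 4.15, 4.54 and 4.62 FPKM in sham right, with a narrow range in either group (log2 fold change 1.84, SE 0.17, adjusted p = 1.93e-05). Hspa1a had 10.6, 10.07 and 11.4 FPKM in the 1-day lesions, against 3.73, 3.43 and 3.43 FPKM in sham right (log2 fold change 1.37, SE 0.18, adjusted p = 5.51e-04), and its near-identical neighbour Hspa1b 11.7, 9.74 and 12.8 FPKM in the 1-day lesions, against 4.17, 3.51 and 3.43 FPKM in sham right (log2 fold change 1.39, SE 0.19, adjusted p = 0.00113). Reads of these 2 genes cannot be assigned with certainty, and a processed pseudogene of Hspb1, Hsp25-ps1, which was called too, can share reads with it. The chaperone Hsph1 had 46.7, 41.3 and 49.5 FPKM in the 1-day lesions, against 39.1, 43.1 and 39.6 FPKM in sham right (adjusted p = 0.874).

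Hmox1, which breaks down heme and is a target of Nrf2, had 25.7, 39.8 and 45.2 FPKM in the 1-day lesions, against 2.51, 1.81 and 2.24 FPKM in sham right. All lesions were far above the sham values, lesion 4 highest (log2 fold change 3.54, SE 0.39, adjusted p = 1.04e-04). Of 17 Nrf2 targets no other was called. Over the 17 the median log2 fold change was 0.08, and 11 lay above 0. By limma 4 of them, Hmox1 included, were higher at an unadjusted p under 0.05, and 1 was lower. With Lcn2 and Steap4, Hmox1 made 3 called rises among 19 genes of heme and iron handling. Nqo1, a classical target of the same factor, had 1.92, 1.86 and 1.74 FPKM in the 1-day lesions, against 2.39, 1.94 and 3.19 FPKM in sham right, and Slc7a11, the cystine transporter, 3.52, 4.17 and 4.35 FPKM in the 1-day lesions, against 3.1, 3.24 and 3.36 FPKM in sham right. Neither was called (adjusted p = 0.70 and 0.786). The hemoglobin genes, which mark blood in the punch, gave no call, and none at an unadjusted p under 0.05. Hba-a1 had 56.2, 67.9 and 75.9 FPKM in the 1-day lesions, against 114, 95.3 and 98.4 FPKM in sham right (adjusted p = 0.888), and the 5 red cell genes tested summed to 234, 292 and 288 FPKM in the 1-day lesions, against 529, 409 and 461 FPKM in sham right.

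The metallothioneins Mt2 and Mt1, which bind zinc and copper, were called of 8 genes of zinc handling. Mt2 had 240.2, 471 and 310.4 FPKM in the 1-day lesions, against 96.4, 101 and 109 FPKM in sham right (log2 fold change 1.67, SE 0.26, adjusted p = 0.00264). Mt1 had 158, 257 and 194 FPKM in the 1-day lesions, against 97.7, 91.5 and 97.3 FPKM in sham right (log2 fold change 1.05, SE 0.23, adjusted p = 0.0327). Lesion 3 was the highest in both. Mt3, the neuronal form, had 139.9, 130.2 and 99.6 FPKM in the 1-day lesions, against 139, 138 and 152 FPKM in sham right, with overlapping values. An antisense transcript that overlaps Mt2 was called too, and since the handling of strand is not given in the sources used here, reads of the pair cannot be told apart. With the left-side punches as control neither metallothionein was called, and with sham right as control Mt1 lost its call when any 1 library except lesion 1 was left out (adjusted p up to 0.21).

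Hypoxia and glycolysis genes had few calls. Of 25 members 22 had a log2 fold change above 0, but the median was 0.23 and 2 were called. Adm, the vasodilator adrenomedullin, had 2.57, 1.54 and 2.24 FPKM in the 1-day lesions, against 0.838, 1.1 and 0.92 FPKM in sham right, highest in lesion 1 (log2 fold change 0.66, SE 0.13, adjusted p = 0.0182). Hk2, the inducible hexokinase, had 1.33, 1.83 and 1.77 FPKM in the 1-day lesions, against 0.791, 0.553 and 0.544 FPKM in sham right (log2 fold change 0.7, SE 0.14, adjusted p = 0.0209). Vegfa had 7.15, 4.82 and 8.11 FPKM in the 1-day lesions, against 8.24, 6.69 and 7.29 FPKM in sham right and Slc2a1, the glucose transporter, 27.6, 30 and 36 FPKM in the 1-day lesions, against 18.4, 17.9 and 18.2 FPKM in sham right, and neither was called (adjusted p = 0.93 and 0.297). Adm lost its call without lesion 1, lesion 4, sham library 1 or sham library 3 (adjusted p up to 0.0982). Hk2 lost its call without lesion 3, lesion 4, sham library 2 or sham library 3 (adjusted p up to 0.13).

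Clotting and plasminogen genes that rose included Plaur and Anxa2. Plaur, the urokinase receptor, had 1.37, 1.37 and 1.63 FPKM in the 1-day lesions, against 0.533, 0.198 and 0.32 FPKM in sham right (log2 fold change 0.87, SE 0.15, adjusted p = 0.00539), and Anxa2, a surface partner of plasminogen, 7.3, 8.41 and 10.7 FPKM in the 1-day lesions, against 3.3, 3.04 and 3.13 FPKM in sham right (log2 fold change 1.23, SE 0.22, adjusted p = 0.00812). All lesions lay above all sham values in both. Enzymes that activate plasminogen were not called, with Plat at 4.13, 4.44 and 4.84 FPKM in the 1-day lesions, against 4.19, 4.83 and 4.46 FPKM in sham right (adjusted p = 0.999) and Plau at 2.13, 1.74 and 2.21 FPKM in the 1-day lesions, against 1.0, 0.991 and 1.03 FPKM in sham right (adjusted p = 0.154). Anxa2 lost its call without lesion 4 (adjusted p up to 0.064).

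Matrix proteases and their inhibitors gave 3 calls of 16, and the list median was 0.00. Mmp3, the metalloproteinase stromelysin, had 2.77, 6.67 and 4.18 FPKM in the 1-day lesions, against 0, 0.0488 and 0 FPKM in sham right, where 2 of the 3 sham libraries are listed at 0 (log2 fold change 2.39, SE 0.38, adjusted p = 0.00295). Adamts1, a secreted protease, had 7.33, 8.19 and 11.6 FPKM in the 1-day lesions, against 2.46, 2.57 and 2.94 FPKM in sham right (log2 fold change 1.43, SE 0.29, adjusted p = 0.0211). Mmp9, the gelatinase often followed after stroke, was under the filter at 0.428, 0.538 and 0.431 FPKM in the 1-day lesions, against 0.40, 0.257 and 0.283 FPKM in sham right, with groups that barely separated. Adamts1 lost its call when any 1 library except lesion 1 was left out (adjusted p up to 0.134).

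Among 15 genes of activated endothelium 5 rose and none fell. Ch25h, which makes 25-hydroxycholesterol, had 3.4, 5.5 and 4.68 FPKM in the 1-day lesions, against 0.508, 0.348 and 0.301 FPKM in sham right (log2 fold change 1.98, SE 0.20, adjusted p = 5.65e-05). Angpt2, the ligand that loosens vessels, had 2.6, 3.92 and 3.26 FPKM in the 1-day lesions, against 0.392, 0.614 and 0.565 FPKM in sham right (log2 fold change 1.48, SE 0.18, adjusted p = 3.63e-04). Icam1, the adhesion molecule of leukocytes, had 1.22, 1.03 and 1.3 FPKM in the 1-day lesions, against 0.453, 0.332 and 0.377 FPKM in sham right (log2 fold change 0.65, SE 0.14, adjusted p = 0.0321). Icam1 lost its call when any 1 library was left out (adjusted p up to 0.154). Ctla2a, a protease inhibitor, had 6.02, 12.3 and 6.21 FPKM in the 1-day lesions, against 2.7, 2.13 and 2.22 FPKM in sham right, with lesion 3 well above the other lesions (log2 fold change 1.39, SE 0.20, adjusted p = 0.00134), and was not called with the left-side punches as control. The selectins Sele and Selp, which slow leukocytes on the vessel wall, were under the filter, with Sele at 0.357, 0.36 and 0.201 FPKM in the 1-day lesions, against 0.038, 0 and 0.0339 FPKM in sham right and Selp at 0.355, 0.248 and 0.229 FPKM in the 1-day lesions, against 0.00894, 0 and 0.00905 FPKM in sham right.

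Of 24 genes of resting endothelium and the blood-brain barrier 2 fell. The list median of -0.02 turned to 0.03 after rescaling without mitochondrial genes, 0.06 with both controls and 0.24 with the left-side punches as control, where no member was called. Itm2a, a membrane protein of brain endothelium, had 24.5, 18.3 and 16 FPKM in the 1-day lesions, against 47.1, 47 and 51.7 FPKM in sham right, with all lesions well under all sham values (log2 fold change -1.29, SE 0.19, adjusted p = 0.00217). Gkn3, a marker of arterial endothelium, had 2.09, 0.928 and 0.653 FPKM in the 1-day lesions, against 3.43, 3.95 and 4.95 FPKM in sham right, highest in lesion 1 (log2 fold change -1.24, SE 0.23, adjusted p = 0.00850). The tight junction gene Cldn5 had 28, 21.6 and 16.4 FPKM in the 1-day lesions, against 35.1, 26.1 and 28.7 FPKM in sham right and the adhesion molecule Pecam1 3.46, 3.73 and 3.7 FPKM in the 1-day lesions, against 2.73, 3.16 and 3.1 FPKM in sham right, and neither was called (adjusted p = 0.874 and 0.883). Against the left-side punches neither Itm2a nor Gkn3 was called, and with sham right as control Gkn3 lost its call without lesion 3, lesion 4 or sham library 3 (adjusted p up to 0.0688).

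Phagocyte genes that rose were low in sham tissue. Of 16 monocyte and macrophage markers 5 were called and 14 lay above 0, with a median of 0.63. Msr1, a scavenger receptor, had 1.72, 3.34 and 2.24 FPKM in the 1-day lesions, against 0.0411, 0.0552 and 0.0736 FPKM in sham right (log2 fold change 1.67, SE 0.27, adjusted p = 0.00307). Lgals3, a galectin of activated phagocytes, had 2.89, 5.31 and 4.61 FPKM in the 1-day lesions, against 0.80, 0.236 and 0.28 FPKM in sham right (log2 fold change 1.86, SE 0.34, adjusted p = 0.00817). Ms4a6d and Ms4a6c, membrane proteins of myeloid cells, were both highest in lesion 3. Ms4a6d had 6.08, 12.9 and 7.61 FPKM in the 1-day lesions, against 1.27, 0.669 and 1.24 FPKM in sham right (log2 fold change 2.22, SE 0.33, adjusted p = 0.00218), and Ms4a6c 2.52, 5.61 and 4.28 FPKM in the 1-day lesions, against 1.07, 0.341 and 0.646 FPKM in sham right (log2 fold change 1.58, SE 0.32, adjusted p = 0.0209). Cd44, the hyaluronan receptor that reactive astrocytes carry as well, had 1.55, 2.58 and 3.99 FPKM in the 1-day lesions, against 0.487, 0.519 and 0.334 FPKM in sham right (log2 fold change 1.31, SE 0.22, adjusted p = 0.00532). The whole list summed to 32.3, 44.0 and 43.9 FPKM in the 1-day lesions, against 16.4, 15.8 and 16.2 FPKM in sham right. Lgals3 lost its call without lesion 3, sham library 2 or sham library 3 (adjusted p up to 0.061). Ms4a6c lost its call without lesion 3, lesion 4, sham library 2 or sham library 3 (adjusted p up to 0.144).

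Few Fc receptor and complement genes were called. Fcgr1, the high-affinity IgG receptor, had 4.04, 3.9 and 3.99 FPKM in the 1-day lesions, against 1.8, 1.08 and 1.38 FPKM in sham right, with lesions almost equal (log2 fold change 1.05, SE 0.18, adjusted p = 0.00595). Fcgr4 had 1.26, 2.81 and 2.13 FPKM in the 1-day lesions, against 0.175, 0.0609 and 0.176 FPKM in sham right (log2 fold change 1.4, SE 0.25, adjusted p = 0.00732). They and Msr1 were the 3 calls among 13 Fc and phagocytic receptors, of which all 13 lay above 0. Of 17 complement genes 2 rose, C5ar1, the receptor of the fragment C5a, at 1.11, 1.61 and 2.37 FPKM in the 1-day lesions, against 0.0925, 0.168 and 0 FPKM in sham right, and C4b, a component that astrocytes make, at 5.5, 5.93 and 11.7 FPKM in the 1-day lesions, against 1.8, 1.66 and 2.04 FPKM in sham right (log2 fold change 1.29, adjusted p = 0.00825 for C5ar1 and 1.55, adjusted p = 0.0108 for C4b). The complement gene C3 had 0.184, 0.359 and 1.05 FPKM in the 1-day lesions, against 0.147, 0.0299 and 0.234 FPKM in sham right, with overlapping ranges. Of the 17 complement genes 16 lay above 0, with a median of 0.52. By limma 9 of them were higher at an unadjusted p under 0.05, and none was lower. C5ar1 lost its call without lesion 4 or sham library 3 (adjusted p up to 0.0662). C4b lost its call without lesion 4 or sham library 2 (adjusted p up to 0.073). Fcgr4 lost its call without lesion 3 (adjusted p up to 0.0593).

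Microglial identity genes went in several directions. Of 15 homeostatic markers, Fcrls was called and rose, at 23.4, 29.5 and 29.5 FPKM in the 1-day lesions, against 11.7, 12.1 and 12.1 FPKM in sham right (log2 fold change 1.13, SE 0.24, adjusted p = 0.029). P2ry12, the purine receptor that marks resting microglia, had 8.02, 5.4 and 4.48 FPKM in the 1-day lesions, against 22.5, 10.48 and 9.19 FPKM in sham right, all lesions under all sham values but with a wide sham range, and was not called (adjusted p = 0.389). Tmem119 had 6.82, 5.16 and 5.36 FPKM in the 1-day lesions, against 8.67, 5.95 and 7.12 FPKM in sham right and Csf1r, the growth factor receptor, 12.8, 12.3 and 14.6 FPKM in the 1-day lesions, against 13.3, 12 and 12.6 FPKM in sham right. The list median was -0.28, and 5 of 15 members had an unadjusted p under 0.05 and were lower. Of 23 genes of activated microglia, Ch25h, Cd14 and Cst7, a cysteine protease inhibitor, rose, and Apoe, the main lipid carrier of the brain, fell. Cst7 had 0.948, 1.37 and 1.73 FPKM in the 1-day lesions, against 0.124, 0.0892 and 0.10 FPKM in sham right, and Apoe 183, 169 and 141 FPKM in the 1-day lesions, against 354, 245 and 320.0 FPKM in sham right. Spp1, osteopontin, had 21.9, 37.7 and 31.3 FPKM in the 1-day lesions, against 11.5, 10.3 and 18.1 FPKM in sham right and was not called (adjusted p = 0.529). Apoe lost its call when any 1 library except sham library 2 was left out (adjusted p up to 0.209). Fcrls lost its call when any 1 library except lesion 1 was left out (adjusted p up to 0.147).

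Few neutrophil genes passed the filter. Of 20 markers 6 passed the filter and Lcn2, which astrocytes make too, was the 1 called. The median log2 fold change over the 6 was 1.19, and 5 of them lay above 0. By limma 4 of the 6 were higher at an unadjusted p under 0.05, and none was lower. S100a8, a subunit of calprotectin, had 1.8, 5.61 and 2.39 FPKM in the 1-day lesions, against 1.31, 0.254 and 0.284 FPKM in sham right, and S100a9, its partner, 4.17, 17.4 and 9.05 FPKM in the 1-day lesions, against 3.69, 0.672 and 1.2 FPKM in sham right (adjusted p = 0.254 and 0.0819). Both were highest in lesion 3, and lesion 1 lay just above sham library 1. The granule genes Ly6g, Ltf and Cebpe were listed at 0 in all 6 libraries, and Camp and Ngp were listed at 0 in the 3 lesions. The marker list as a whole summed to 29.7, 69.5 and 37.0 FPKM at 1 day, with Lcn2 the largest single part, and to 16.2, 7.49 and 12.5 FPKM in sham right. For lymphocytes 3 of 18 markers passed the filter and limma called none, with none at an unadjusted p under 0.05.

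The lists of interferon, antigen presentation and division genes held few calls at 1 day. Of 21 interferon-stimulated genes 19 lay above 0 with a median of 0.37, and Ifitm3, a membrane protein that blocks viral entry, was called at 39.2, 43 and 52.4 FPKM in the 1-day lesions, against 23.4, 13.2 and 17.3 FPKM in sham right (log2 fold change 1.3, SE 0.23, adjusted p = 0.00680). By limma 7 of the 21 had an unadjusted p under 0.05, all higher. Isg15, a ubiquitin-like protein, had 9.15, 13.2 and 9.09 FPKM in the 1-day lesions, against 18.4, 4.06 and 5.42 FPKM in sham right, with sham library 1 above every lesion. Ifitm3 lost its call without lesion 4 or sham library 2 (adjusted p up to 0.0521). None of 19 MHC and antigen presentation genes was called by limma, with none at an unadjusted p under 0.05, and none of 24 replication and mitosis genes, with 4 higher at an unadjusted p under 0.05. Mki67, the proliferation antigen, had 0.195, 0.355 and 0.986 FPKM in the 1-day lesions, against 0.335, 0.364 and 0.39 FPKM in sham right. Of 25 lysosomal genes Ctsc, a cathepsin that activates granule proteases, was called (log2 fold change 1.11, adjusted p = 0.0211). Ctsc lost its call without lesion 3, lesion 4, sham library 1 or sham library 2 (adjusted p up to 0.134).

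**Figure D3:**
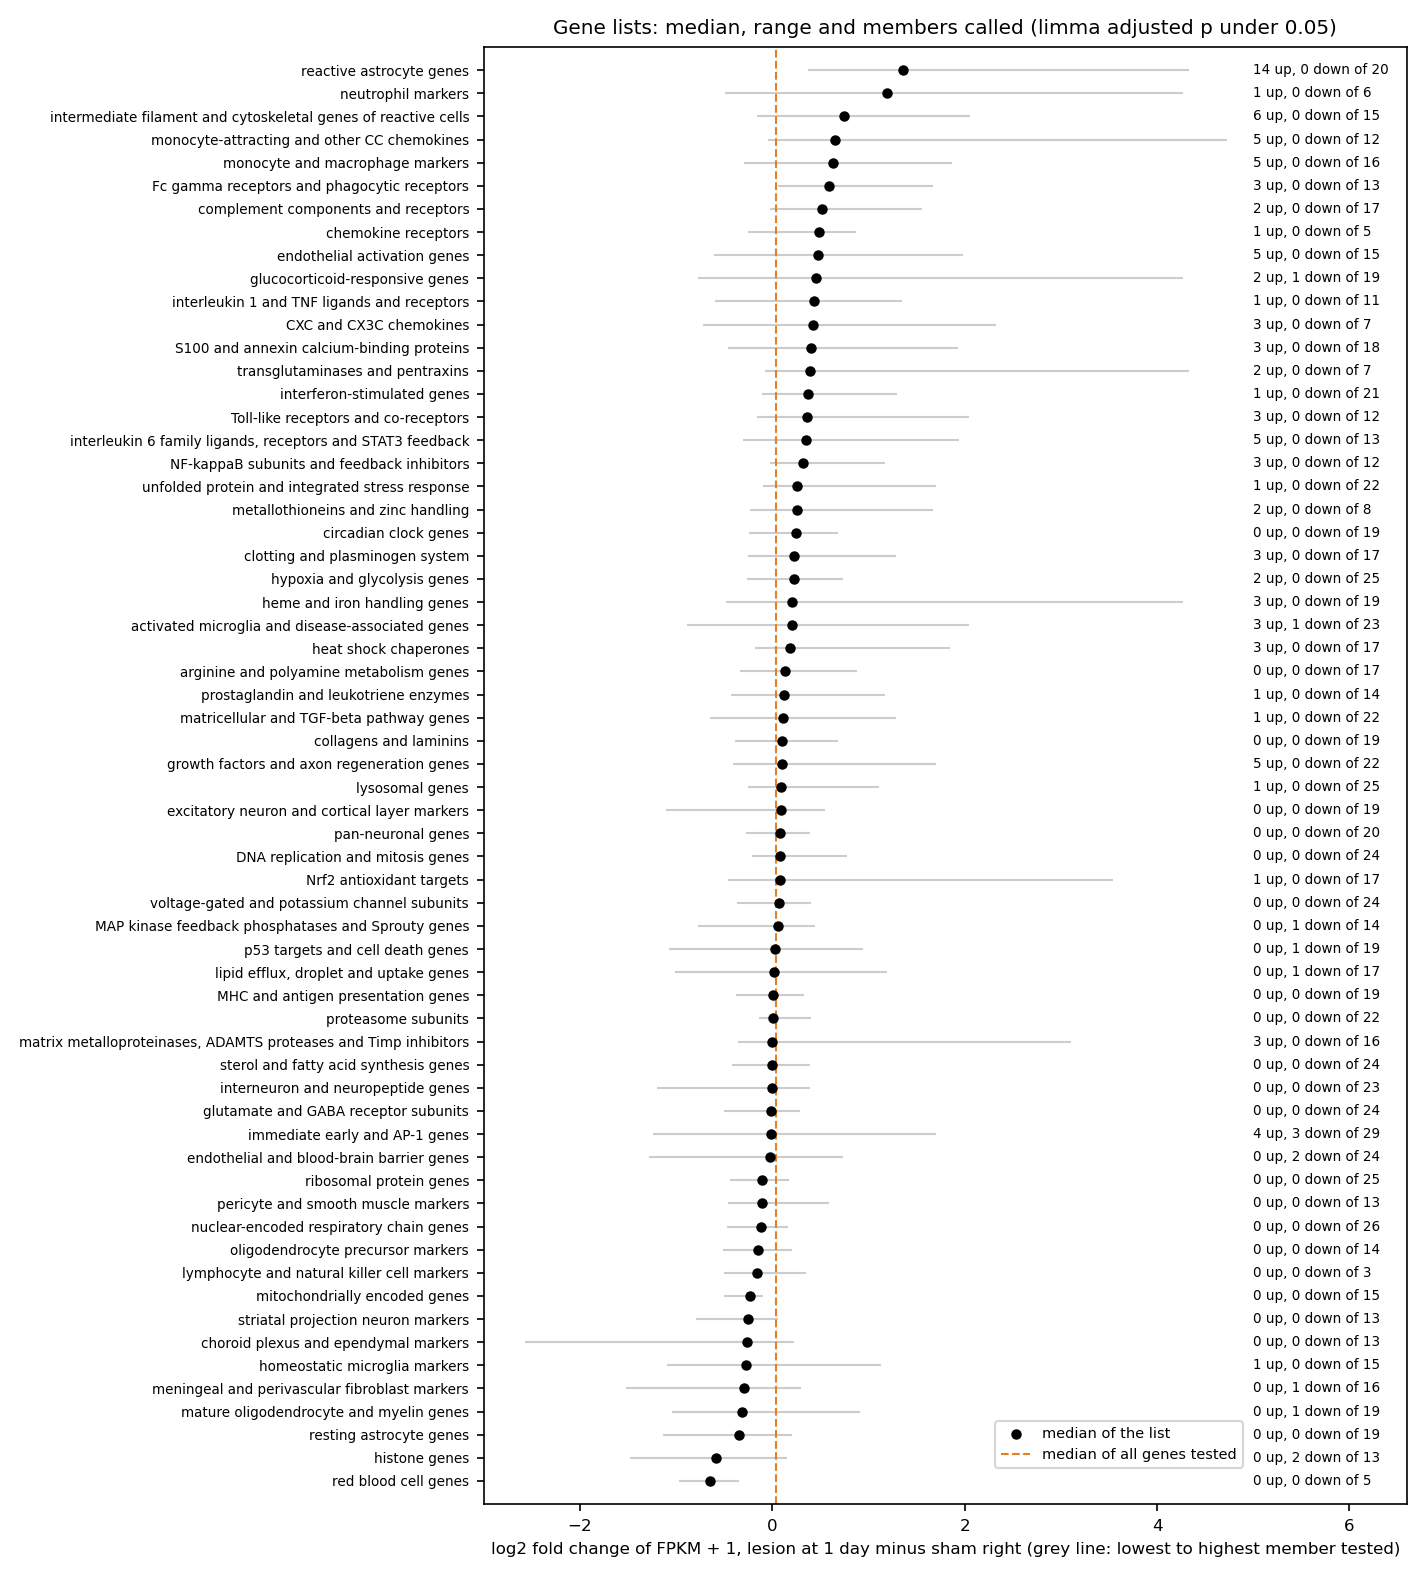
Log2 fold change of FPKM + 1 (lesion at 1 day minus sham right) for 62 gene lists, with the median of each list as a point, the range of its tested members as a grey line, and the number called at the right. Reactive astrocyte genes lie highest with a median of 1.36 and red blood cell genes lowest with -0.65, while the dashed line marks the median of all genes, 0.034.

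Immediate early genes split. Of 29 members 4 rose and 3 fell, and the median of -0.02 turned to 0.02 when FPKM were rescaled without mitochondrial genes and to 0.13 with the left-side punches as control. Atf3, a stress-induced transcription factor, had 2.69, 3.47 and 3.09 FPKM in the 1-day lesions, against 0.352, 0.262 and 0.159 FPKM in sham right (log2 fold change 1.7, SE 0.20, adjusted p = 1.87e-04). Ier3 had 13.9, 18.2 and 14.7 FPKM in the 1-day lesions, against 6.15, 4.69 and 4.63 FPKM in sham right (log2 fold change 1.43, SE 0.16, adjusted p = 1.25e-04), and Maff, a small Maf protein, 2.19, 3.45 and 3.38 FPKM in the 1-day lesions, against 1.17, 0.261 and 0.57 FPKM in sham right (log2 fold change 1.29, SE 0.20, adjusted p = 0.00246). Fosl1 rose less, at 2.93, 3.41 and 3.59 FPKM in the 1-day lesions, against 1.65, 1.83 and 1.95 FPKM in sham right (log2 fold change 0.61, SE 0.13, adjusted p = 0.0278). Arc, which neurons make when active, had 46.9, 24.5 and 34.7 FPKM in the 1-day lesions, against 91.6, 85.8 and 70.6 FPKM in sham right, with no lesion near the sham values (log2 fold change -1.24, SE 0.26, adjusted p = 0.0241). Btg2, an antiproliferative gene, had 4.37, 3.16 and 3.84 FPKM in the 1-day lesions, against 7.56, 10.47 and 9.34 FPKM in sham right (log2 fold change -1.08, SE 0.25, adjusted p = 0.0432), and Dusp1, a MAP kinase phosphatase, 12, 7.68 and 8.37 FPKM in the 1-day lesions, against 17.2, 17.2 and 14.9 FPKM in sham right (log2 fold change -0.77, SE 0.17, adjusted p = 0.0302). Fos had 10.8, 8.91 and 11.1 FPKM in the 1-day lesions, against 13.6, 17.4 and 13.6 FPKM in sham right and Egr1 37.3, 29.4 and 39.8 FPKM in the 1-day lesions, against 58.1, 52.1 and 39.4 FPKM in sham right, and neither was called (adjusted p = 0.703 and 0.599). Neither the rise of Maff nor any fall in this list was called with the left-side punches as control, and with sham right as control Arc, Dusp1 and Fosl1 lost their calls when any 1 library except lesion 1 was left out (adjusted p up to 0.17, 0.202 and 0.141). Btg2 lost its call when any 1 library was left out (adjusted p up to 0.221). Btg2 was the 1 call among 19 p53 targets and cell death genes, where Cdkn1a, which halts the cell cycle, had 9.22, 13 and 14.3 FPKM in the 1-day lesions, against 6.68, 5.93 and 4.78 FPKM in sham right (adjusted p = 0.352), and Dusp1 the 1 call among 14 MAP kinase feedback genes. Of 19 glucocorticoid-responsive genes Lcn2 and Nfkbia rose and Dusp1 fell, and the list median, 0.46, turned to -0.27 with the left-side punches as control.

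Linker histones were among the clearest falls. Hist1h1c had 5.72, 4.98 and 5.4 FPKM in the 1-day lesions, against 17.2, 14.1 and 14.8 FPKM in sham right, with all lesions far under all sham values (log2 fold change -1.36, SE 0.23, adjusted p = 0.00508). Hist1h1e had 0.103, 0.195 and 0.272 FPKM in the 1-day lesions, against 0.918, 1.02 and 0.975 FPKM in sham right (log2 fold change -0.73, SE 0.11, adjusted p = 0.00218). Both package the DNA between nucleosomes. They were the 2 calls of the 13 tested genes of the histone list, whose median was -0.58, with 11 members under 0. The falls were not confined to linker histones. Outside the list, the core histone gene Hist2h2be was called lower too (log2 fold change -0.62, SE 0.13, adjusted p = 0.0211). The core histone gene Hist1h2bc had 26.5, 24.2 and 26.3 FPKM in the 1-day lesions, against 43.8, 34.6 and 44.6 FPKM in sham right and was not called (adjusted p = 0.344).

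Of the other falls, Myoc, the secreted protein myocilin, was the largest and the least even. It was the 1 call among 16 markers of meningeal and perivascular fibroblasts, whose median was -0.29. It had 4.06, 0.599 and 2.04 FPKM in the 1-day lesions, against 6.8, 8.15 and 7.19 FPKM in sham right, with lesion 1 closest to sham and lesion 3 farthest from it (log2 fold change -1.52, SE 0.33, adjusted p = 0.0315). Cldn10, a claudin of astrocytes, had 10.06, 9.31 and 6.74 FPKM in the 1-day lesions, against 17.5, 16.1 and 19.8 FPKM in sham right (log2 fold change -0.96, SE 0.19, adjusted p = 0.0147), and Id4, an inhibitor of helix-loop-helix factors, 10.3, 7.49 and 9.83 FPKM in the 1-day lesions, against 18.9, 15.7 and 19.8 FPKM in sham right (log2 fold change -0.91, SE 0.17, adjusted p = 0.00850). Unc13c, which primes synaptic vesicles, had 3.21, 2.19 and 3.04 FPKM in the 1-day lesions, against 6.04, 6.13 and 10.4 FPKM in sham right (log2 fold change -1.13, SE 0.23, adjusted p = 0.0214). Cmtm5 had 27.7, 22.6 and 29.4 FPKM in the 1-day lesions, against 53.8, 41.8 and 63.9 FPKM in sham right (log2 fold change -0.96, SE 0.21, adjusted p = 0.0356). The protein-coding gene 2310022B05Rik had 8.18, 6.24 and 8.73 FPKM in the 1-day lesions, against 20.1, 15.2 and 19.7 FPKM in sham right, with no overlap (log2 fold change -1.15, SE 0.18, adjusted p = 0.00317), and was called in every alternative fit. Kctd4, Lrrc75b, Olfml1, Akr1c14 and Rpe65 and the transcripts Gm34466 and Gm10561 fell by 0.80 to 1.03 on the log2 scale. Myoc, Rpe65 and Kctd4 lost their calls when any 1 library except lesion 1 was left out (adjusted p up to 0.163, 0.176 and 0.119). Cldn10 lost its call without lesion 4, sham library 1 or sham library 3 (adjusted p up to 0.102). Id4 lost its call without lesion 3, sham library 1 or sham library 3 (adjusted p up to 0.073). Unc13c lost its call without lesion 3, lesion 4 or sham library 3 (adjusted p up to 0.159). Cmtm5 lost its call when any 1 library except sham library 2 was left out (adjusted p up to 0.244). Lrrc75b lost its call without lesion 3, lesion 4, sham library 1 or sham library 3 (adjusted p up to 0.0824). Olfml1 and Gm34466 lost their calls without sham library 3 (adjusted p up to 0.0705 and 0.0553). Gm10561 lost its call when any 1 library was left out (adjusted p up to 0.244). With the left-side punches as control, Myoc, Kctd4, Akr1c14, Rpe65, Gm34466 and Gm10561 were not called.

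The lists of neuronal genes held no call and the myelin list held 1. Arc and Unc13c, whose falls are given above, are not in these lists. None of 20 pan-neuronal genes was called by limma, with none at an unadjusted p under 0.05, and their median was 0.08. Rbfox3, the neuronal nuclear antigen, had 32.5, 29.2 and 32.5 FPKM in the 1-day lesions, against 28.7, 30.8 and 24.7 FPKM in sham right, and Gad1, which makes GABA, 37.9, 34.9 and 37.3 FPKM in the 1-day lesions, against 30.9, 34.4 and 32.5 FPKM in sham right. Rbfox3 overlapped between the groups, and Gad1 lay just above sham (adjusted p = 0.928 and 0.907). Lists of excitatory neurons (19 genes, unadjusted p under 0.05 in 2 higher and 2 lower), interneurons (23, 3 lower), glutamate and GABA receptors (24, 1 lower) and channels (24, 1 higher and 1 lower) held no call either. Of 19 myelin genes Opalin, a membrane protein of oligodendrocytes, fell, at 9.85, 12 and 16.2 FPKM in the 1-day lesions, against 25.1, 22.2 and 33.7 FPKM in sham right (log2 fold change -1.04, SE 0.24, adjusted p = 0.0432), and Mbp, a main myelin protein, had 60.6, 74.3 and 96.1 FPKM in the 1-day lesions, against 127, 78.5 and 125 FPKM in sham right (adjusted p = 0.793). Opalin lost its call when any 1 library except lesion 4 was left out (adjusted p up to 0.274). With the left-side punches as control it was not called, and the median of the myelin list, -0.31, turned to 0.08 with that control. Pdgfra, the growth factor receptor of oligodendrocyte precursors, had 3.87, 3.67 and 4.48 FPKM in the 1-day lesions, against 4.16, 3.99 and 3.91 FPKM in sham right (adjusted p = 0.997), and limma called none of 14 genes of these precursors, with 3 lower at an unadjusted p under 0.05. In all, 22 of the 62 lists held no called gene, and ribosomal protein genes, respiratory chain genes and mitochondrially encoded genes had none at an unadjusted p under 0.05 either.

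Of 22 growth factor and axon regeneration genes 5 were called, all upward. Besides the transcription factor Atf3 and the cytokine Il11 they are Fgf2, a mitogen of astrocytes, at 1.82, 2.32 and 2.95 FPKM in the 1-day lesions, against 0.653, 0.901 and 0.879 FPKM in sham right, Hbegf, a ligand of the EGF receptor, at 6.49, 7.59 and 9.05 FPKM in the 1-day lesions, against 3.83, 4.5 and 3.81 FPKM in sham right, and Igfbp3, which binds insulin-like growth factors, at 5.33, 5.84 and 6.53 FPKM in the 1-day lesions, against 3.31, 2.9 and 2.75 FPKM in sham right. None of the 3 overlapped between groups (adjusted p = 0.00970, 0.0472 and 0.00657). Of 18 S100 and annexin genes S100a4 and S100a11 rose with Anxa2 (log2 fold change 1.05, adjusted p = 0.0407 for S100a4 and 1.54, adjusted p = 0.0472 for S100a11). S100a4, S100a11 and Hbegf lost their calls when any 1 library except lesion 1 was left out (adjusted p up to 0.226, 0.238 and 0.243). Fgf2 lost its call without lesion 4 or sham library 1 (adjusted p up to 0.075). S100a4 and Fgf2 were not called with the left-side punches as control. A2m, a broad protease inhibitor of the acute phase, had 3.39, 5.75 and 6.66 FPKM in the 1-day lesions, against 0.355, 0.667 and 0.496 FPKM in sham right (log2 fold change 2.02, SE 0.23, adjusted p = 1.66e-04).

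The 3 lesions differed among themselves. Of the 126 called rises, lesion 1 was the lowest in 108 and the highest in 3, while lesion 4 was the highest in 70 and lesion 3 in 53. Over all genes tested, lesion 1 was the lowest in 20.4% and the highest in 22.1%, and lesion 4 was the highest in 52.3%. Of the 39 called falls, lesion 1 was the highest in 26. The order of lesions 3 and 4 went by list, with lesion 3 highest for all 5 called CC chemokines and both metallothioneins. Lesion 4 was highest for all 5 called interleukin 6 and STAT3 genes, all 6 cytoskeletal genes, all 3 heat shock genes and 11 of 14 reactive astrocyte genes. Lesion 4 also had the lowest mitochondrial share (24.4%), against 28.8% in lesion 1 and 33.0% in lesion 3. Markers of neighbouring structures moved with the library as well. The striatal list summed to 104, 99.2 and 192 FPKM in the 1-day lesions, against 164, 135 and 146 FPKM in sham right, and the striatal dopamine receptor Drd2 had 0.594, 0.311 and 4.08 FPKM in the 1-day lesions, against 2.59, 2.0 and 2.91 FPKM in sham right. Ttr, the choroid plexus transthyretin, had 65.5, 0.502 and 421 FPKM in the 1-day lesions, against 267, 144 and 226 FPKM in sham right. Their part in these results was not tested.

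**Figure D4:**
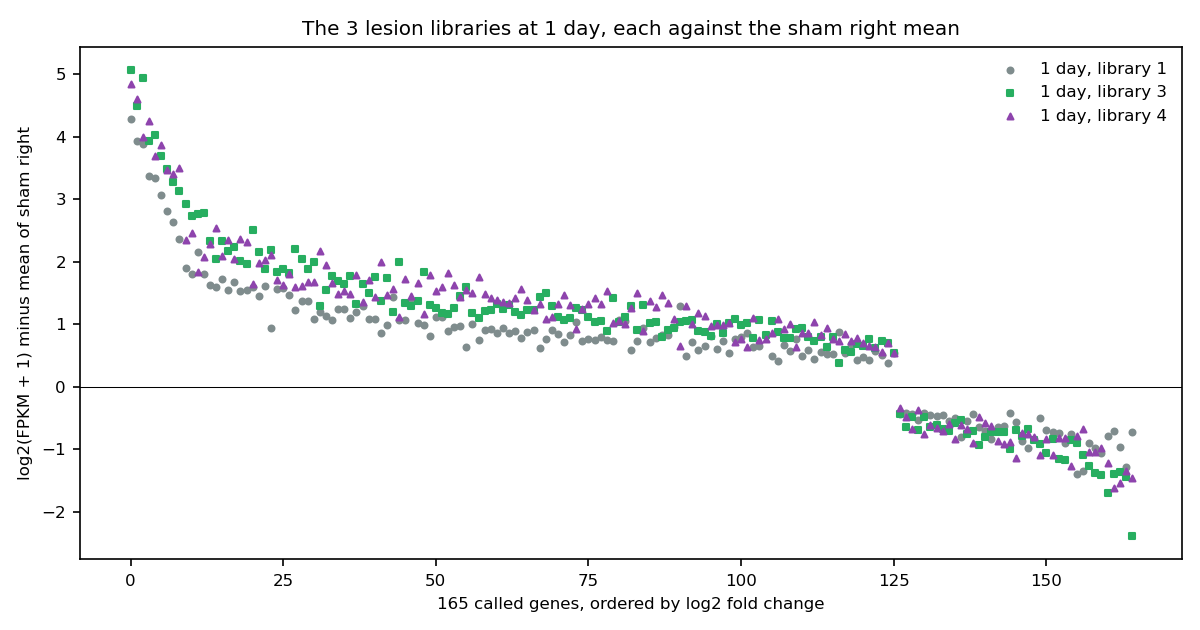
Log2(FPKM + 1) of each 1-day lesion minus the mean of sham right (y axis) for the 165 called genes in the order of their log2 fold change (x axis), with a symbol and colour for each of lesions 1, 3 and 4. Lesion 1 lies lowest in 108 of the 126 rises. All 3 lesions lie on the same side of 0 in each gene, which must be so because the groups overlap in none of the 165.

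Set against the lesion at 4 h in the same fit, 172 genes were called at 1 day (1.23%), 119 higher (0.849%) and 53 lower (0.378%). Shifting each library to the same median turned this to 101 higher and 108 lower, so the balance of directions rests on the scaling. The count was 124 without lesion 1, 70 without lesion 3, 97 without lesion 4, and 99, 105 and 85 without 4-h library 2, 3 or 6. Tgm1 had 9.69, 14.8 and 18.7 FPKM at 1 day, against 0.315, 0.263 and 0.192 FPKM at 4 h (libraries 2, 3 and 6). Ptx3 had 18.5, 27.8 and 30.1 FPKM at 1 day, against 1.05, 0.659 and 0.332 FPKM at 4 h. By the same naming rule these were the largest rises (log2 fold change 3.57, adjusted p = 2.25e-07 for Tgm1 and 3.97, adjusted p = 8.92e-07 for Ptx3), followed by Ccl12 (2.86), Ccl7 (2.64) and Ccl2 (2.33). Of the reactive astrocyte list 12 of 20 were higher at 1 day than at 4 h and none lower. Not all genes that are high at 1 day differed from 4 h: Cd14 averaged 10.3 ± 2.33 FPKM at 1 day and 10.6 ± 3.04 FPKM at 4 h (SD, n = 3 each, adjusted p = 0.984), Atf3 3.09 ± 0.39 FPKM at 1 day and 3.38 ± 0.229 FPKM at 4 h (adjusted p = 0.934), and Socs3 7.45 ± 2.21 FPKM at 1 day and 5.16 ± 1.49 FPKM at 4 h (adjusted p = 0.663).

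Other genes were lower at 1 day than at 4 h. Hspa1a averaged 10.7 ± 0.692 FPKM at 1 day and 23.6 ± 1.06 FPKM at 4 h (log2 fold change -1.07, SE 0.18, adjusted p = 0.00617), and Ctla2a 8.17 ± 3.56 FPKM at 1 day and 20.3 ± 2.59 FPKM at 4 h (log2 fold change -1.27, SE 0.20, adjusted p = 0.00422). The largest differences of this kind were in genes that were not called against sham at 1 day. Gm12840, a noncoding transcript, had 0.253, 0.25 and 1.14 FPKM at 1 day, against 4.72, 8.18 and 4.79 FPKM at 4 h (log2 fold change -2.17, SE 0.39, adjusted p = 0.00928), and Depp1, a regulator of autophagy, 0.576, 0.159 and 0.329 FPKM at 1 day, against 3.46, 2.54 and 4.34 FPKM at 4 h (log2 fold change -1.71, SE 0.22, adjusted p = 0.00120). Apold1, Arrdc2 and the synaptic pentraxin Nptx2 followed (log2 fold changes -1.64, -1.55 and -1.45).

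From 1 day on, many more genes were higher at 3 days than lower. The lesion at 3 days gave 732 calls against that at 1 day (5.22%), 711 higher (5.07%) and 21 lower (0.15%). Leaving out 1 library gave 399 (without 3-day library 8) to 795 calls (without 3-day library 2), with 469 without lesion 1 and 477 without lesion 3. The chemokines Ccl2, Ccl7, Ccl12 and Cxcl1 were among the 21. Ptx3 had 3.71, 1.02 and 1.94 FPKM at 3 days (libraries 1, 2 and 8), against 18.5, 27.8 and 30.1 FPKM at 1 day (log2 fold change -3.1, SE 0.27, adjusted p = 5.32e-06). Ccl2 averaged 4.39 ± 1.09 FPKM at 3 days and 15.3 ± 3.85 FPKM at 1 day, Ccl12 16.6 ± 2.79 FPKM at 3 days and 56 ± 14.9 FPKM at 1 day, and Cxcl1 0.632 ± 0.384 FPKM at 3 days and 4.73 ± 1.75 FPKM at 1 day (SD, n = 3 each). Their differences were -1.59, -1.67 and -1.79 on the log2 scale (adjusted p = 0.00287, 0.0304 and 2.87e-04). Il11 and Angpt2 were lower at 3 days too (adjusted p = 7.80e-04 and 0.0103).

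Mpeg1, Spp1, Ifi27l2a, Fabp7 and Gm49368, named by the rule for this comparison, were higher at 3 days and were not called at 1 day against sham right. Mpeg1, the perforin of macrophages, had 59.6, 37 and 68.1 FPKM at 3 days, against 5.57, 5.49 and 6.38 FPKM at 1 day (log2 fold change 2.99, SE 0.20, adjusted p = 7.96e-07). Spp1 had 463, 208 and 425 FPKM at 3 days, against 21.9, 37.7 and 31.3 FPKM at 1 day (log2 fold change 3.5, SE 0.50, adjusted p = 4.17e-04). Ifi27l2a and Fabp7 differed by 3.7 and 3.32 on the log2 scale, and Gm49368 was listed at 0 in all 3 lesions at 1 day and averaged 7.78 ± 2.07 FPKM at 3 days. By list, 19 of 24 replication and mitosis genes, 17 of 25 lysosomal genes, 12 of 19 MHC genes and 11 of 15 homeostatic microglia genes were higher at 3 days than at 1 day, and none lower. Of the astrocyte genes, Gfap was higher at 3 days (log2 fold change 1.05, SE 0.26, adjusted p = 0.0218), and Tgm1 and Serpina3n were not called (adjusted p = 0.122 and 0.0812). The comparisons of 1 day with sham, 4 h and 3 days share the 1-day lesions.

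**Figure D5:**
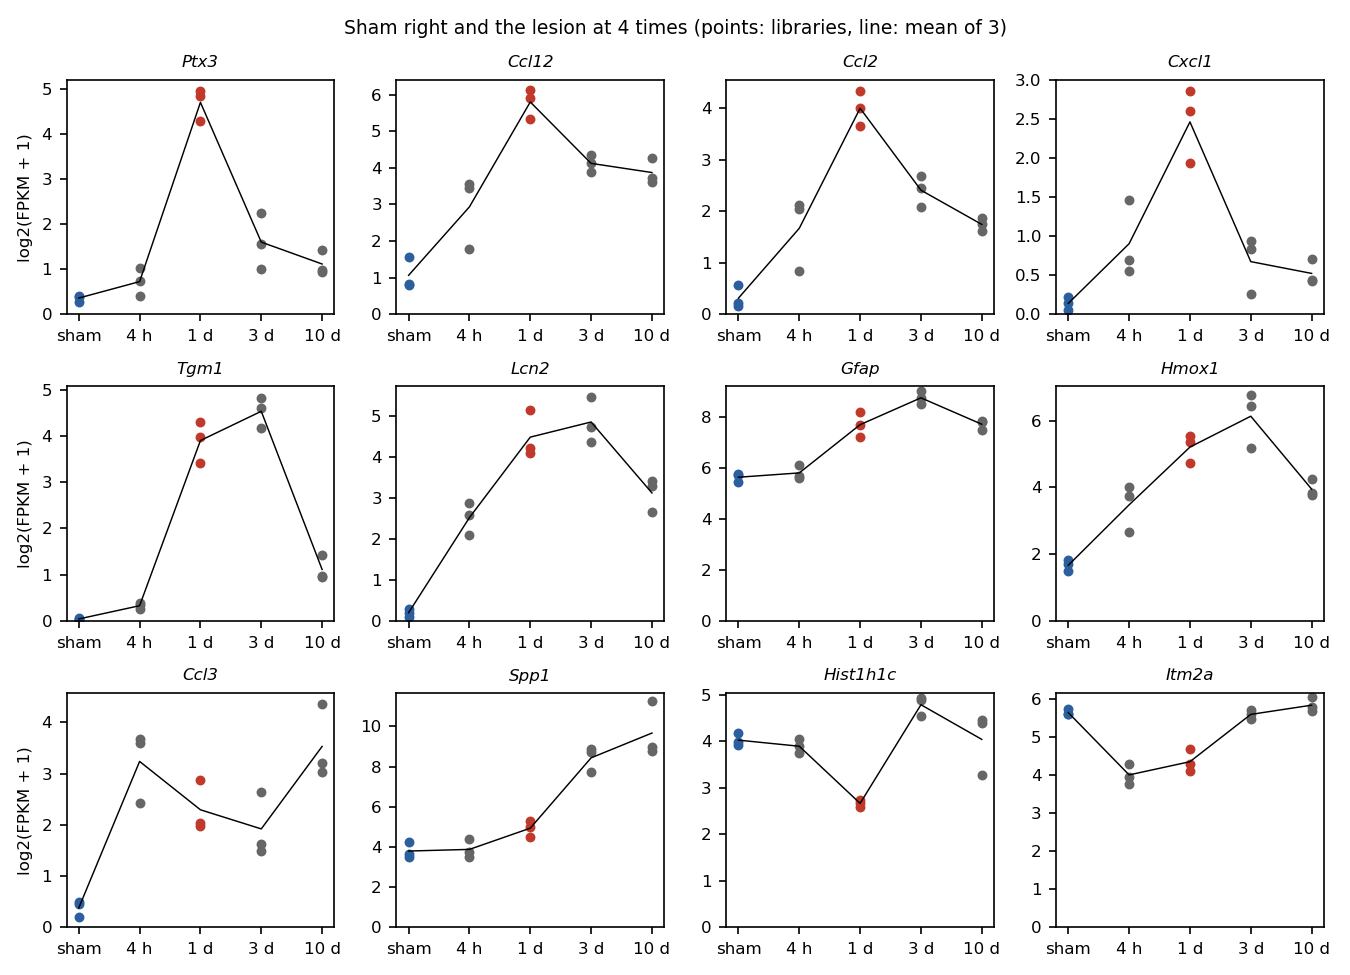
Log2(FPKM + 1) of 12 genes in sham right and in the lesion at 4 h, 1 day, 3 days and 10 days, with a point for each library (1 day red, sham blue) and a line through the means of 3. Ptx3, Ccl12, Ccl2 and Cxcl1 are highest at 1 day, Gfap and Spp1 are higher at 3 days than at 1 day, and Hist1h1c is lowest at 1 day.

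With the left-side punches in place of sham right as control, 244 genes were called at 1 day, 179 higher and 65 lower. All 25 of the largest rises were called, and 76 of the 95 called genes under the naming rule were called against this control too. Gfap averaged 64.9 ± 19.9 FPKM on the left side and 48.9 ± 5.47 FPKM in sham right, and Lcn2 1.56 ± 0.119 FPKM on the left side and 0.15 ± 0.0793 FPKM in sham right (SD, n = 3 each). Mt2 averaged 340.4 ± 118 FPKM in the 1-day lesions, 185 ± 54.1 FPKM on the left side and 102 ± 6.13 FPKM in sham right.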

How the data were processed

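Total RNA of 18 punches in 6 groups was sequenced, 3 mice per group. Per the submitters' processing notes the tools included Trimmomatic 0.36, HISAT2 2.1.0 and StringTie 1.3.4d on GRCm38, and the deposited table holds FPKM per gene and library. Its p-values and q-values, deposited by the authors without naming a comparison, were not used as tests. The copy used ends inside a line after 34921 complete entries sorted by q. Their p-values and q-values imply 38022 entries, so that 3101, with q above 0.908, were not analysed here. Of the entries, 34837 matched GENCODE M21. FPKM are relative to the library total, so mitochondrial RNA can shift all other genes. How strand and shared reads were handled is not given in the sources used here.

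Genes with at least 1 FPKM in at least 3 of 18 libraries (14016) were put on log2(FPKM + 1), and limma 3.58.1 (R 4.3.3) was fitted on all 6 groups with trended, robust moderation. Adjusted p-values (Benjamini-Hochberg, across the 14016 genes) under 0.05 were called. FPKM give no exact depth. The share of single-exon genes near a whole multiple of 1 fragment (within 0.1) was low, so no count test was run. The steps were tested on simulated data.

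The members and the 62 gene lists were chosen with earlier results of these data known. Named are the 25 largest called rises and 20 largest called falls whose groups do not overlap and whose higher mean reaches 1 FPKM, called members of the lists (up to 6 in a direction), a panel of marker genes, the 5 largest changes each way against 4 h and 3 days, and the 10 widest ranges. Other list members given as uncalled examples, S1pr3, Hsp25-ps1, Gm45774 and Hist2h2be were chosen after their values were seen. Alternatives were the pseudocount, the filter, scaling, the groups in the fit, the control group, the moderation, a replicate block, and each library left out. The 1-day and sham right libraries numbered 1 and 3 deviated together with correlations of 0.037 and 0.036, so the numbers were not taken as pairs. Same-numbered left-side and sham right libraries were not checked in this way. Some results under this rule are not reported here. Promoters were read from the RefSeq table of GRCm38.p6.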

Additional observations from a re-analysis of the deposited data

Results flagged for a closer look

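Genes named above for the 1-day lesion differed, by a test of the difference in the same fit, between the 1-day effect and the effect at another time. The values are differences on the log2(FPKM + 1) scale with a limma adjusted p under 0.05, and no explanation was tested.

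At 1 day minus 4 h, the chemokines differed by 2.86 for Ccl12, 2.33 for Ccl2, 2.64 for Ccl7, 1.56 for Cxcl1 and 1.66 for Cxcl10. Astrocyte and secreted genes differed by 3.97 for Ptx3, 3.57 for Tgm1, 1.96 for Lcn2, 2.23 for Serpina3n, 1.43 for Steap4, 1.89 for Gfap, 1.78 for A2m, 2.06 for Timp1 and 1.79 for Mmp3. Hmox1 differed by 1.73, Ms4a6d by 1.68 and Hspb1 by 1.00. Hist1h1c was lower at 1 day than at 4 h, by -1.23.

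At 3 days minus 1 day, the sign was negative for Ptx3 (-3.10), Cxcl1 (-1.79), Ccl7 (-1.75), Ccl12 (-1.67), Ccl2 (-1.59), Steap4 (-1.04) and Hspb1 (-0.97). It was positive for Lgals3 (2.22), Hist1h1c (2.12), Itm2a (1.24), Gfap (1.05), Btg2 (1.04), Arc (0.99) and Gm10561 (0.78). Of these, Hist1h1c, Itm2a, Btg2, Arc and Gm10561 were lower in the 1-day lesions than in sham right.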

How the results depend on the processing

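Of the called genes under the naming rule, 94 of 95 kept their call with a pseudocount of 0.1, 64 without a filter on low values, 82 with each library shifted to the same median, 86 after rescaling without mitochondrial genes, 92 with only the 2 groups compared in the fit, 76 with the left-side punches as control and 83 with both control groups. The number was 39 with the replicate block, 88, 60 and 56 without lesion 1, 3 or 4 and 64, 64 and 57 without sham library 1, 2 or 3. The call held in all 6 fits that left out a library for 49, and in all alternatives for 33. None of the 95 changed sign.

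The count of genes called at 1 day against sham right (165, with 126 higher and 39 lower) was 323 (222 higher, 101 lower) with only these 2 groups in the fit, and 418 (264 and 154) when left-side library 5 and 10-day library 5 were left out of the fit. Genes called lower were 23 without a filter, 24 after rescaling and 65 with the left-side control. Both controls together gave 252 calls, 66 of them lower. Leaving out 1 library gave 85 to 156 calls, 72 to 125 higher and 6 to 31 lower. Against 4 h, the 2 groups alone gave 65 calls (42 higher, 23 lower), the fit without those 2 libraries 706 (399 and 307), and no filter 74 higher. Shifting each library to the same median gave 108 lower. Leaving out 1 library gave 70 to 124 calls, 48 to 97 higher and 22 to 39 lower. For 3 days against 1 day, the fit without those 2 libraries gave 1290 calls (1228 higher, 62 lower), and no filter 35 lower. Leaving out 1 library gave 399 to 795 calls, 388 to 781 higher and 11 to 18 lower. The cause was not tested.

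With a replicate block on the library numbers, which were not taken as pairs, 62 genes were called at 1 day against sham right (45 higher, 17 lower), 13 against 4 h (6 and 7) and 377 at 3 days against 1 day (368 and 9).

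The sign of the log2 fold change at 1 day turned in uncalled genes. With the left-side control it was 0.404 for Fos, 0.198 for Egr1, 0.0737 for Aqp4, 0.279 for Cldn5, 0.168 for Pdgfra, -0.622 for Gm12840, -0.119 for Apold1, -0.498 for Arrdc2, -0.0458 for Ifi27l2a and -0.0859 for Gm49368. With both controls it was 0.0807 for Pdgfra, -0.161 for Gm12840, -0.0120 for Arrdc2 and -0.0430 for Gm49368. Gm49368 had -0.0432 with shifted medians and -0.0736 with the replicate block, and Pdgfra 0.0474 after rescaling and -0.0733 to 0.0419 with a library left out. Mki67 had -0.142 with the block and -0.0994 to 0.267 with a library left out. A depth known only roughly limits what the genes under 1 FPKM can show.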
